A study of Mus musculus with 13 samples.

Results

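The genes described here are 10 regulators of mitochondrial biogenesis and fat oxidation: the nuclear transcription factors Nrf1, Gabpa and Gabpb1, the mitochondrial transcription factors Tfam, Tfb1m and Tfb2m, the deacetylases Sirt1 and Sirt3, and the nuclear receptors Ppara and Ppard. They were chosen by name, and every probe set annotated with exactly 1 of these symbols was taken. All 10 were measured, on 11 of the 34760 probe sets, and were set among 19937 genes in all. Tfb2m had 2 probe sets, and the others had 1 each.

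PGC-1α, encoded by Ppargc1a, is a transcriptional coactivator that binds no DNA of its own. It acts through factors such as NRF1, the GABP complex and the PPARs, and it is known to raise Tfam and with it the transcription and upkeep of mitochondrial DNA. SIRT1 deacetylates PGC-1α, and SIRT3 deacetylates enzymes inside the mitochondria, which in the retina lie most densely in the inner segments of the photoreceptors.

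Whole retinae of C57BL/6 mice without PGC-1α in any tissue (global knockout, KO) and of C57BL/6 wild type (WT) mice were hybridized to Affymetrix Mouse Gene 1.0 ST arrays, with 2 retinae of 1 animal on each array. KO light and WT light mice (3 arrays each) were dark adapted for 16 h, had their pupils dilated, received white light of 15000 lux for 2 h and recovered overnight in darkness. KO dark (3 arrays) and WT dark mice (3 arrays, with another labelled WT dark 4) were dark adapted without light. The methods give an age of 6 to 13 weeks and male animals, and they name separate sources for KO and WT mice, so genotype and source cannot be told apart. By the labels all light arrays came from males and all dark arrays from females except WT dark 4, a male, so sex and light cannot be told apart in the 12 arrays compared. Xist, an RNA of female cells, went with the labels and not with the methods. Its log2 intensity was 11.86 to 12.02 on KO dark arrays and WT dark 1 to 3. It was 4.67 to 5.31 on light arrays, with 5.31 on KO light 3, and 4.88 on WT dark 4.

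The arrays labelled KO light 3 and WT dark 4 resembled each other's labelled groups more than their own. Across all genes KO light 3 had a mean Pearson r of 0.992 with KO light 1 and 2 and of 0.997 with WT dark 1 to 3. The array labelled WT dark 4 had a mean r of 0.998 with KO light 1 and 2 and of 0.989 with WT dark 1 to 3. WT dark 4 was left out of the main fit, and the calls were also made with this array as the third KO light array in place of KO light 3 (exchanged arrays). A list of 12 genes is named here for reactive glia, and which retinal cells made their RNA was not tested. These genes averaged a log2 intensity of 9.60, 9.37 and 8.12 on KO light 1 to 3 and of 8.09, 8.42 and 8.74 on WT light arrays. They averaged 7.87 to 7.97 on KO dark arrays and 7.81 to 8.04 on WT dark 1 to 3, but 9.81 on WT dark 4. The 6 measured rod markers averaged 11.9 to 12.1 on KO light arrays, against 12.2 to 12.3 on WT light arrays. In RNA of whole retina, fewer cells of a type and less RNA per cell cannot be told apart.

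The promoters of the members were searched for the letters that their own upstream factors bind, since several of these regulators are known to be targets of NRF1 or GABP. RefSeq windows of the mouse assembly GRCm38.p6, which reach from 250 bases before to 50 after the start of a gene, were found for all 10 members (13 windows). On both strands GCGCATGC (NRF1) stood in 2 of the 13 member windows, of 2 members, and in 2.71% of all 32851 windows. CCGGAAG (GABP) stood in 3 of the 13 member windows, of 3 members, and in 8.86% of all windows. TCAAGGTCA, bound by the estrogen-related receptors, stood in no window of a member and in 0.423% of all windows. In the stretches of 30 bases that follow, printed on the strand of the gene, capitals mark the match:
Tfb2m, NRF1 motif (chr1:179546245-179546274, - strand): ctaggtcgttcGCATGCGCcattcgtaatg
Ppara, NRF1 motif (chr15:85735734-85735763, + strand): ggggctcggtgGCGCATGCgcgcggactag
Tfam, GABP motif (chr10:71238073-71238102, - strand): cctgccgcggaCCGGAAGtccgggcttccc
Sirt3, GABP motif (chr7:140882376-140882405, - strand): gtgctcgctcaCTTCCGGcaccgcgggcgc
Gabpa, GABP motif (chr16:84835020-84835049, + strand): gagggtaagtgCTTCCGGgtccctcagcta

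The match in Tfb2m begins 13 bases after the start of the gene, whereas the matches in Ppara, Tfam, Sirt3 and Gabpa begin at -31, -47, -85 and -93. In Ppara the NRF1 letters also read on the other strand from -29, so that both matches overlap. The letters were not found in the windows of Nrf1 and Gabpb1 on chromosomes 6 and 2, of Sirt1 on chromosome 10, or of Tfb1m and Ppard on chromosome 17.

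With the arrays as labelled, no member was called in any comparison. A gene was called when the adjusted p of limma (Benjamini-Hochberg over all 19937 genes) was below 0.05 and the ratio was at least 1.2 or at most 0.87. In KO light against WT light 0 of 10 members were called, against 0.176% of all genes, and 1 member (Sirt3) had an unadjusted p below 0.05, against 12.9% of all genes. In KO dark against WT dark 0 members were called, against 0.0752% of all genes, and 0 had an unadjusted p below 0.05, against 7.1%. KO light against KO dark gave 0 calls (0.1% of all genes) and 1 member, Ppara, with an unadjusted p below 0.05 (13.9% of all genes). WT light against WT dark gave 0 calls (0.431%) and 0 such members (17.1%). The interaction sets the light response of KO against that of WT retinae and was called on the adjusted p alone. It gave 0 called members (0.0602% of all genes) and 0 with an unadjusted p below 0.05 (6.86%). The same model without moderated variances also called 0 members in each of these 5 comparisons.

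**Figure D1:**
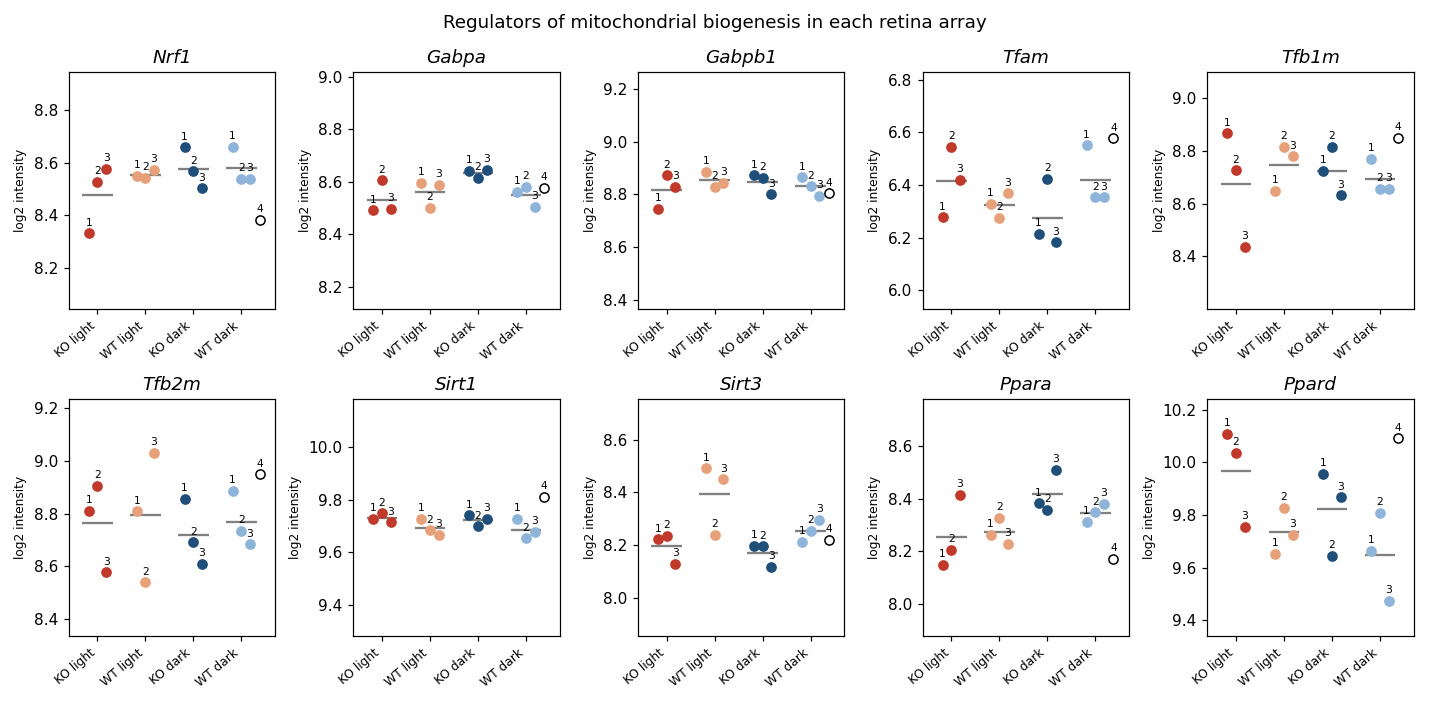
The log2 intensity of each of the 10 regulators (vertical axes, each spanning 0.9) is plotted for KO light, WT light, KO dark and WT dark arrays, with the replicate number at each point, a grey line at the mean of replicates 1 to 3 and an open point for the array labelled WT dark 4. Sirt1 points lie within 0.0951 of each other over the 12 filled points, whereas Ppard points spread over 0.635, and for Ppard and Ppara the open point lies beside KO light 1 and 2.

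The regulators that kept closest to 1 level were Sirt1 and the GABP subunits. Sirt1, the NAD-dependent deacetylase of the nucleus, had a log2 intensity of 9.73, 9.75 and 9.71 on KO light arrays and of 9.73, 9.68 and 9.67 on WT light arrays. It had 9.74, 9.70 and 9.73 on KO dark arrays and 9.73, 9.65 and 9.68 on WT dark arrays. The groups overlapped throughout, and the largest of the 4 differences was 0.04 (SE 0.04) for KO light minus WT light, with a 95% interval from -0.05 to 0.13. Gabpb1, the GABP subunit that carries the activation domain, lay between 8.75 and 8.89 on all 12 arrays, and its group means differed by at most 0.0369. For both genes the 95% intervals of all 4 differences lay inside the ratios of 0.87 and 1.2, so changes of that size lay outside these intervals. Sirt1 stood at 9.81 and Gabpb1 at 8.80 on the array labelled WT dark 4, and with the exchanged arrays KO light minus WT light was 0.07 (adjusted p = 0.309) for Sirt1 and -0.05 (adjusted p = 0.566) for Gabpb1.

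Gabpa, the DNA-binding ETS subunit of GABP, had a log2 intensity of 8.49, 8.61 and 8.50 on KO light arrays and of 8.60, 8.50 and 8.59 on WT light arrays. It had 8.64, 8.61 and 8.64 on KO dark arrays and 8.56, 8.58 and 8.50 on WT dark arrays. All KO dark arrays lay above all WT dark arrays and above all KO light arrays, whereas the KO light and WT light arrays overlapped. Groups that did not overlap were found for 2 of 10 members in KO dark against WT dark, Gabpa and Sirt3, and for 16.7% of all genes. In KO light against KO dark this held for Gabpa alone among the members and for 13.1% of all genes, and in WT light against WT dark for 0 members and 28.2% of all genes. The Gabpa differences were 0.09 (SE 0.05, adjusted p = 0.83) for KO dark minus WT dark and -0.10 (SE 0.05, adjusted p = 0.379) for KO light minus KO dark in limma, and neither passed the test. Gabpa stood at 8.58 on the array labelled WT dark 4, and with the exchanged arrays the second difference was -0.08 (adjusted p = 0.269).

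Nrf1, a factor that binds the promoters of many nuclear genes of the respiratory chain, had a log2 intensity of 8.33, 8.53 and 8.58 on KO light arrays and of 8.55, 8.54 and 8.57 on WT light arrays. It had 8.66, 8.57 and 8.50 on KO dark arrays and 8.66, 8.54 and 8.54 on WT dark arrays. KO light 1 was the lowest of the 12 and the other arrays lay close together. KO light minus KO dark was -0.10 (SE 0.07, 95% interval -0.24 to 0.05, adjusted p = 0.56). The array labelled WT dark 4 stood at 8.38, next to KO light 1, and with the exchanged arrays the difference was -0.16 (SE 0.06, adjusted p = 0.0671), which did not pass the threshold.

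Tfam packages mitochondrial DNA and starts its transcription, and it is the member through which PGC-1α is best known to reach the mitochondrial genome. Its log2 intensity was 6.28, 6.54 and 6.42 on KO light arrays and 6.33, 6.28 and 6.37 on WT light arrays. It was 6.21, 6.42 and 6.18 on KO dark arrays and 6.55, 6.35 and 6.35 on WT dark arrays. The groups overlapped, with KO dark 1 and 3 below every other array and WT dark 1 above them all. KO dark minus WT dark was -0.15 (SE 0.08, 95% interval -0.33 to 0.04, adjusted p = 0.828), and KO light minus WT light was 0.09 (SE 0.08, adjusted p = 0.702). The interaction was 0.23 (SE 0.12, adjusted p = 0.753) in limma, or 0.29 (SE 0.12, adjusted p = 0.262) with the exchanged arrays, where the third KO light array stood at 6.58. No 95% interval of a Tfam difference lay inside the ratios of 0.87 and 1.2, so neither a change of that size nor its absence could be shown for Tfam. Tfam was also the dimmest member and rests on 1 probe set. Its group means of 6.27 to 6.42 lay below the 6.47 of the lens gene Mip, which stood at percentile 32.7 of all genes. Whether this dim signal narrowed its differences was not tested.

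Tfb1m and Tfb2m are relatives of bacterial rRNA methyltransferases, and TFB2M melts the promoter for the mitochondrial RNA polymerase whereas TFB1M methylates ribosomal RNA of the mitochondria. Tfb1m had a log2 intensity of 8.87, 8.73 and 8.43 on KO light arrays and of 8.65, 8.82 and 8.78 on WT light arrays. It had 8.63 to 8.82 on KO dark arrays and 8.66 to 8.77 on WT dark arrays. KO light 3 was the lowest of all arrays and KO light 1 the highest, and KO light minus WT light was -0.07 (SE 0.09, adjusted p = 0.803). It was 0.07 (SE 0.06, adjusted p = 0.546) with the exchanged arrays, where the third KO light array stood at 8.85. The sign thus turned with the array, and neither value was larger than the spread between arrays.

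The 2 probe sets of Tfb2m differed in their spread. Probe set 10360580 had 9.09, 9.22 and 8.91 on KO light arrays and 9.12, 8.67 and 9.54 on WT light arrays. It had 9.42, 8.95 and 8.98 on KO dark arrays and 9.31, 9.11 and 9.02 on WT dark arrays. Probe set 10400165 had 8.53, 8.59 and 8.24 on KO light arrays and 8.50, 8.41 and 8.53 on WT light arrays. It had 8.29, 8.43 and 8.24 on KO dark arrays and 8.46, 8.36 and 8.34 on WT dark arrays. Neither probe set was called with the arrays as labelled. Probe set 10400165 rose by 0.27 (SE 0.06, adjusted p = 0.00662, limma over probe sets) in KO light against KO dark retinae once the arrays were exchanged, which put 8.66 in place of 8.24. Probe set 10360580 gave 0.07 (SE 0.18, adjusted p = 0.82), and the mean of both gave 0.17 (SE 0.10, adjusted p = 0.275).

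Sirt3 is the main deacetylase of the mitochondrial matrix. Its log2 intensity was 8.22, 8.24 and 8.13 on KO light arrays, against 8.49, 8.24 and 8.45 on WT light arrays. It was 8.20, 8.19 and 8.12 on KO dark arrays, against 8.21, 8.25 and 8.29 on WT dark arrays. The KO arrays lay below the WT arrays in the light and in the dark without overlap, though the nearest arrays lay side by side. In the light Sirt3 alone among the 10 members had groups that did not overlap, against 14.1% of all genes. The difference was -0.20 (SE 0.07, 95% interval -0.34 to -0.06, adjusted p = 0.241) for KO light minus WT light and -0.08 (SE 0.07, adjusted p = 0.915) for KO dark minus WT dark in limma. WT light minus WT dark was 0.14 (SE 0.07, adjusted p = 0.299) and KO light minus KO dark 0.03 (SE 0.07, adjusted p = 0.911), and their difference, the interaction, was -0.11 (SE 0.09, adjusted p = 0.852). With the exchanged arrays the third KO light array stood at 8.22 and KO light minus WT light was -0.17 (SE 0.06, adjusted p = 0.0912). None of these values passed the test after adjustment.

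Ppara, the receptor that turns on fatty acid oxidation, had a log2 intensity of 8.15, 8.21 and 8.41 on KO light arrays and of 8.26, 8.33 and 8.23 on WT light arrays. It had 8.38, 8.36 and 8.51 on KO dark arrays and 8.31, 8.35 and 8.38 on WT dark arrays. KO light 1 and 2 were the lowest of the 12 arrays, and KO light 3 lay among the dark arrays. As labelled KO light minus KO dark was -0.16 (SE 0.07, 95% interval -0.31 to -0.01, adjusted p = 0.324), which did not pass the test. The array labelled WT dark 4 stood at 8.17, between KO light 1 and 2. Ppara fell in KO light against KO dark retinae by 0.24 on the log2 scale (SE 0.05, ratio 0.846, adjusted p = 0.00365) with the exchanged arrays. The exchange also took the SD of Ppara within KO light from 0.14 to 0.0282. The array put in resembled KO light 1 and 2 over all genes, so its closeness to them in Ppara is no separate support. Without KO light 3 and with no array in its place Ppara fell by 0.24 (adjusted p = 0.0161), in a fit that called 9.94% of all genes. In WT light against WT dark retinae the difference was -0.07 (SE 0.07, adjusted p = 0.608) as labelled. The interaction was -0.09 (SE 0.10, adjusted p = 0.903) as labelled and -0.17 (SE 0.07, adjusted p = 0.25) with the exchanged arrays, so a light response that differs between genotypes was not shown for Ppara.

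Ppard, the receptor of the same family that most tissues hold, varied most among the members. Its log2 intensity was 10.11, 10.04 and 9.75 on KO light arrays and 9.65, 9.83 and 9.72 on WT light arrays. It was 9.96, 9.64 and 9.87 on KO dark arrays and 9.66, 9.81 and 9.47 on WT dark arrays. KO light 1 and 2 were the highest of all and KO light 3 lay inside the range of the WT light arrays, and KO dark overlapped WT dark. The difference was 0.23 (SE 0.11, 95% interval -0.01 to 0.47, adjusted p = 0.399) for KO light minus WT light and 0.17 (SE 0.11, adjusted p = 0.852) for KO dark minus WT dark in limma. The array labelled WT dark 4 stood at 10.09. Ppard rose in KO light against WT light retinae by 0.35 (SE 0.09, ratio 1.27, adjusted p = 0.023) with the exchanged arrays. Without KO light 3 and with no array in its place the difference was 0.34 (adjusted p = 0.0792) and did not pass the test, in a fit that called 5.24% of all genes. KO light minus KO dark was 0.26 (SE 0.09, adjusted p = 0.0558) with the exchanged arrays, and the interaction was 0.17 (SE 0.13, adjusted p = 0.559).

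**Figure D2:**
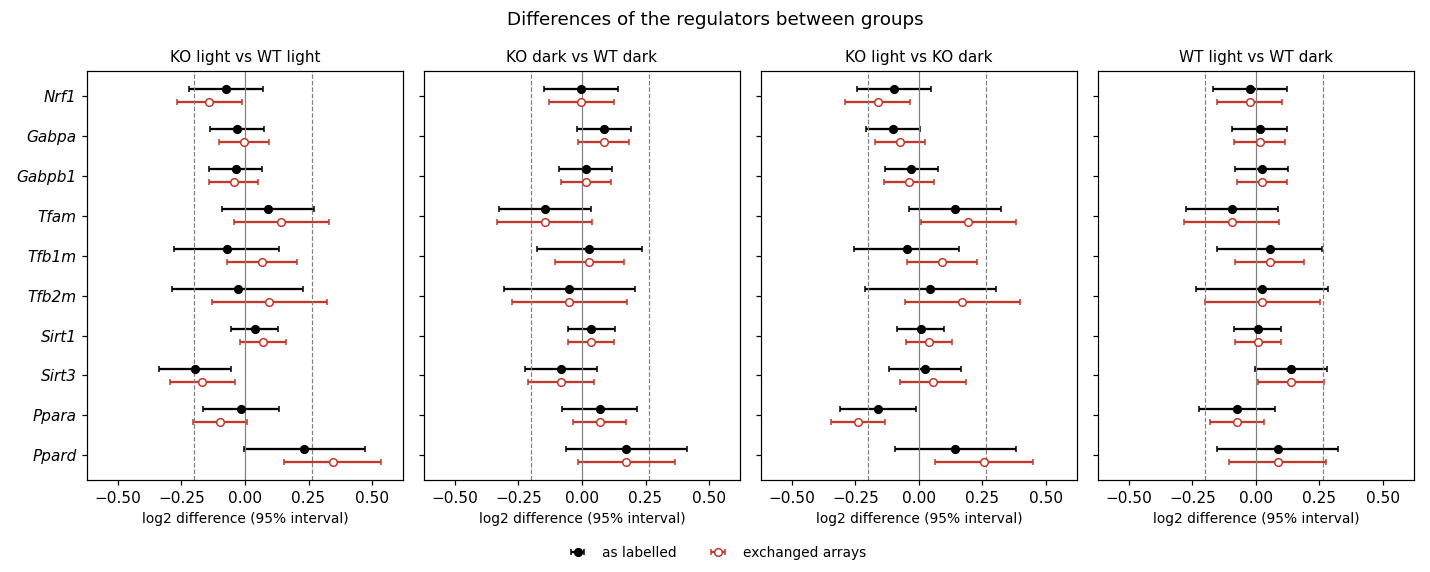
The differences of log2 intensity (horizontal axes) with their 95% intervals are plotted for the 10 regulators in 4 comparisons, filled for the arrays as labelled and open for the exchanged arrays, with dashed lines at the ratios of 0.87 and 1.2. As labelled 18 of the 40 intervals lie inside both dashed lines, and the filled points farthest from 0 are those of Ppard (0.23) and Sirt3 (-0.20) in KO light against WT light.

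With the exchanged arrays 1 of 10 members was called in KO light against WT light, against 8.23% of all genes, and 1 in KO light against KO dark, against 13.3% of all genes. Both shares of members are near those of all genes. None was called in KO dark against WT dark (0.878% of all genes), in WT light against WT dark (4.41%) or for the interaction (2.78%). An unadjusted p below 0.05 was found for 3 members in KO light against WT light (26.5% of all genes), for 0 in KO dark against WT dark (10.3%) and for 4 in KO light against KO dark (34.7%). It was found for 1 member in WT light against WT dark (23.8%) and for 2 in the interaction (16.2%). The Ppara and Ppard calls rest on arrays that also stood apart in the genes of reactive glia, and the part of glia in them was not tested. Over the 12 arrays as labelled the reactive glia mean had a Pearson r of -0.788 with Ppara and of 0.678 with Ppard. The mean of the rod markers had 0.527 and -0.699, and that of the cone markers 0.748 and -0.683. Nrf1 had -0.705 with reactive glia, 0.791 with the rod and 0.832 with the cone markers, and the part of tissue composition in its values was not tested either. The other members had -0.37 to 0.395 with reactive glia. These values describe arrays that share group and RNA composition, and KO light 1 and 2 held the highest reactive glia means and Ppard values and the lowest Ppara values.

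**Figure D3:**
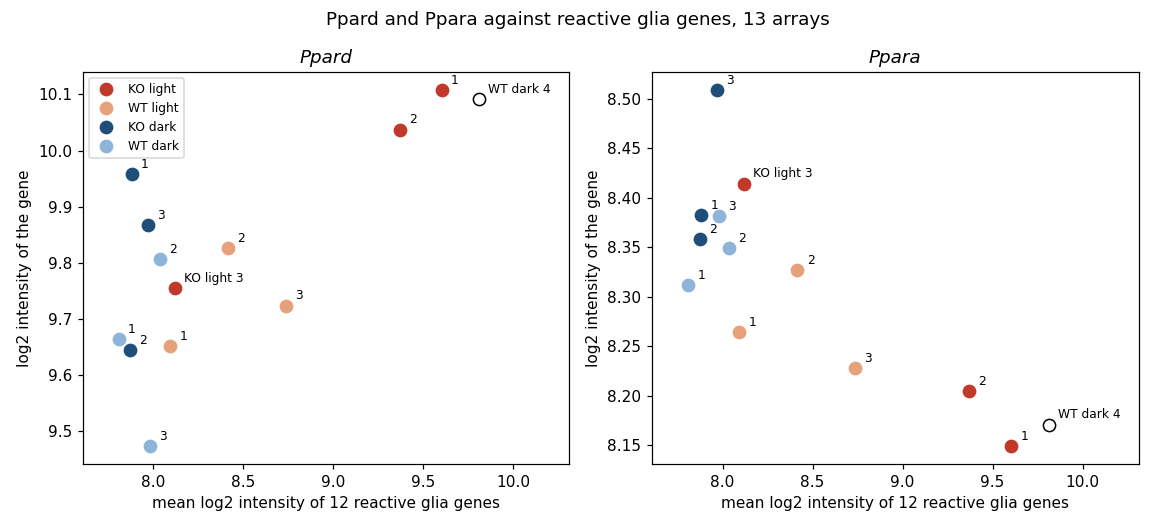
The log2 intensity of Ppard (left) and Ppara (right) is plotted against the mean log2 intensity of 12 reactive glia genes for 13 arrays, coloured by group with the replicate number beside each point and an open point for the array labelled WT dark 4. KO light 1 and 2 and WT dark 4 stand apart at reactive glia means of 9.37 to 9.81, with Ppard at 10.04 to 10.11 and Ppara at 8.15 to 8.21, whereas KO light 3 stands at 8.12 among the other arrays.

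The 2 genes whose levels followed Ppard most closely over the 12 arrays were Midn (Pearson r = 0.947), which encodes the ubiquitin-like protein midnolin, and Kcnj10 (r = 0.929), which encodes the potassium channel Kir4.1 of Müller glia. Cap2, a regulator of actin, ran most closely the other way (r = -0.906). These coefficients were 0.931, 0.942 and -0.892 for Midn, Kcnj10 and Cap2 with the array labelled WT dark 4 added, which reuses the other 12 arrays and is no separate check. The 3 genes were picked as extremes of all those compared. The mean of the 6 Müller glia markers, which do not include Kcnj10, had an r of 0.43 with Ppard over the 12 arrays. Among the members themselves Nrf1 and Gabpb1 had the highest coefficient (r = 0.774) and Tfb2m and Ppara the lowest (r = -0.639), again over 12 arrays that share 4 groups.

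Of the coactivators above these regulators, Ppargc1a itself had a log2 intensity of 10.02, 10.25 and 9.96 on KO light arrays and 9.96, 9.85 and 9.99 on WT light arrays. It had 10.40, 10.19 and 10.26 on KO dark arrays and 10.03, 10.01 and 10.02 on WT dark arrays. The KO signal was thus not below the WT signal, and the position of the probe set relative to the deleted exons was not given, so it does not check the genotype. Ppargc1b, which encodes the related coactivator PGC-1β, had 8.56, 8.80 and 9.17 on KO light arrays and 8.88 to 9.03 on WT light arrays. It had 9.03 to 9.15 on KO dark arrays and 9.05 to 9.14 on WT dark 1 to 3. KO light 1 and 2 were the lowest of these, and the array labelled WT dark 4 stood at 8.50. Once the arrays were exchanged, Ppargc1b fell in KO light retinae by 0.35 (SE 0.07, adjusted p = 0.00727) on the log2 scale against WT light and by 0.48 (SE 0.07, adjusted p = 0.000494) against KO dark. The list of PGC-1 coactivators and estrogen-related receptors held 6 genes, and as labelled 0 were called. With the exchanged arrays 1 was called higher and 3 lower in KO light against KO dark (13.3% of all genes), and 1 higher and 2 lower against WT light (8.23%). Pprc1, a further PGC-1 relative, rose by 0.41 and Esrrb and Esrrg, orphan receptors that PGC-1 proteins coactivate, fell by 0.34 and 0.25 in KO light against KO dark. Against WT light Pprc1 rose by 0.37 and Esrrb fell by 0.43. Without KO light 3 and with no array in its place these genes were called as well, except Esrrg against KO dark (adjusted p = 0.137) and Pprc1 against WT light (adjusted p = 0.112). Pprc1 stood at 7.22 and 7.09 on KO light 1 and 2, and at 7.54 on the array labelled WT dark 4.

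Genes that NRF1 or GABP are known to bind, mostly subunits of the respiratory chain, were measured for 23 of 25 listed. As labelled 0 of them were called in any comparison. In KO light against WT light 20 had a lower and 3 a higher mean, with a median difference of -0.10 against -0.01 over all genes. With the exchanged arrays 17 had a lower and 6 a higher mean there, with a median of -0.08 against -0.02. In KO dark against WT dark 17 had a lower and 6 a higher mean, with a median of -0.07 against 0.00 over all genes. In WT light against WT dark 21 had a higher and 2 a lower mean, with a median of 0.15 against 0.02. In KO light against KO dark 22 had a higher and 1 a lower mean, with a median of 0.09 against 0.00. With the exchanged arrays all 23 had a higher mean in KO light against KO dark, with a median of 0.19 against -0.01. The exchange leaves the other medians as they are. These comparisons share arrays, and none of the median differences was tested as a list.

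Sdhd, which encodes the small membrane anchor of succinate dehydrogenase, had the largest genotype difference of this list. Its log2 intensity was 8.38, 8.43 and 8.54 on KO light arrays, against 8.96, 8.78 and 8.73 on WT light arrays. It was 8.06, 8.26 and 8.10 on KO dark arrays, against 8.67, 8.54 and 8.57 on WT dark arrays. KO and WT arrays did not overlap in the light or in the dark. The differences were -0.38 (SE 0.07, adjusted p = 0.0677) in the light and -0.46 (SE 0.07, adjusted p = 0.051) in the dark as labelled, and Sdhd fell by 0.42 (adjusted p = 0.00164) and by 0.46 (adjusted p = 0.00411) with the exchanged arrays. The dark arrays were the same in both fits, which differ in the residual variance and in the p-values of the other genes.

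With the exchanged arrays 1 of the 23 genes was called higher and 4 lower in KO light against WT light, against 8.23% of all genes called. These were Hspd1, the mitochondrial chaperonin, which rose by 0.27, and Sdhd, Uqcrh of complex III, Cox5a of cytochrome c oxidase and Atp5g1 of ATP synthase, which fell by 0.42, 0.26, 0.24 and 0.22. In KO dark against WT dark 4 genes were called lower (0.878% of all genes called), Sdhd, Uqcrh, Cox5b and Atp5g1, by 0.46, 0.26, 0.24 and 0.21. Higher calls were made for 4 genes in KO light against KO dark (13.3% of all genes called), Cox4i1, Hspd1, Cox5b and Sdhd, by 0.41, 0.33, 0.32 and 0.27. In WT light against WT dark 5 were called higher (4.41% of all genes called). They were Cox6a1 by 0.67 (adjusted p = 0.00111), Cox5a by 0.30, Uqcrb of complex III by 0.29, and Atp5c1 of ATP synthase and Surf1, an assembly factor of cytochrome c oxidase, by 0.27 each. With KO light 3 left out and no array in its place, Hspd1 was not called against WT light (adjusted p = 0.0553) or against KO dark (ratio just under the limit), nor was Uqcrh in KO dark against WT dark (adjusted p = 0.0666). That fit also called genes of the list that are not named here. In all it called 5 of the 23 lower in KO light against WT light (5.24% of all genes called) and 5 higher in KO light against KO dark (9.94%). Cox6a1, a subunit of cytochrome c oxidase, stood at 10.20, 10.03 and 10.19 on WT light arrays, against 9.60, 9.38 and 9.43 on WT dark arrays, without overlap. On KO dark arrays it stood at 9.75, 9.70 and 9.83, above WT dark 1 to 3, unlike the genes called lower in KO dark. KO light 1 to 3 stood at 10.03, 10.15 and 9.36, so this gene did not follow the list in the dark.

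**Figure D4:**
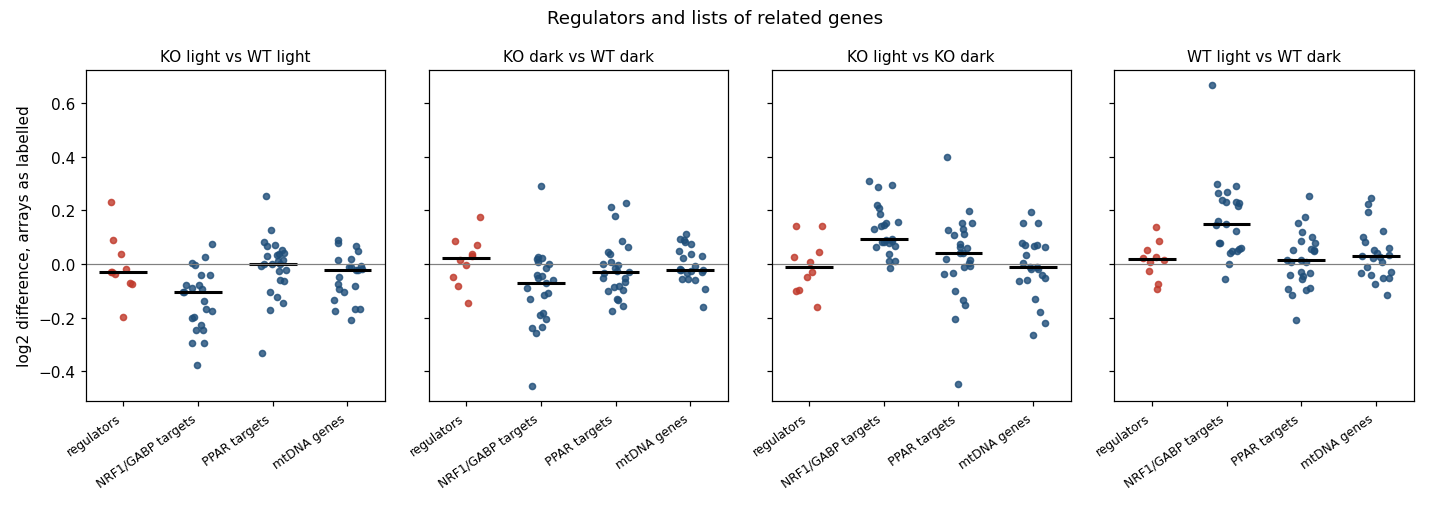
The difference of log2 intensity of each gene (vertical axis, arrays as labelled) is plotted in 4 comparisons for the 10 regulators (red) and for 3 lists of related genes (blue), with a black line at the median. The medians of the NRF1 and GABP targets are -0.10, -0.07, 0.09 and 0.15 from left to right, whereas those of the regulators lie between -0.03 and 0.02.

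In the other lists of the pathway 0 genes were called with the arrays as labelled either. Of 25 measured target genes of the PPARs, 4 were called with the exchanged arrays in KO light against KO dark, 2 higher and 2 lower, which is close to the 13.3% of all genes called there. Cd36, a fatty acid transporter, and Vldlr, a lipoprotein receptor, fell by 0.48 and 0.33. Plin2, which coats lipid droplets, and Txnip, an inhibitor of thioredoxin, rose by 0.38 and 0.36. Cd36 was dim, with a log2 intensity between 4.64 and 5.34 on all arrays, and whether it stood above background was not tested. In KO light against WT light 2 were called (8.23% of all genes), and Hadhb, an enzyme of fatty acid oxidation, and Vldlr fell by 0.36 and 0.30. In WT light against WT dark 1 was called (4.41% of all genes), and Cpt1a, which carries fatty acids into oxidation, fell by 0.21. These 7 calls were also made without KO light 3. The median of the 25 genes was 0.04 as labelled and 0.07 with the exchanged arrays in KO light against KO dark, against 0.00 and -0.01 over all genes.

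Of 22 measured genes for the upkeep and transcription of mitochondrial DNA, 2 were called higher and 3 lower in KO light against KO dark with the exchanged arrays. Pnpt1, an RNA nuclease of the mitochondria, and Hsd17b10, a subunit of mitochondrial RNase P, rose by 0.46 and 0.31, whereas Top1mt, a topoisomerase, Polg2, the accessory subunit of the mitochondrial DNA polymerase, and Lrpprc, which stabilises mitochondrial mRNA, fell by 0.37, 0.35 and 0.29. Of 11 measured further nuclear regulators of mitochondria, Myc and Atf4, transcription factors of growth and of the stress response, rose by 0.89 and 0.32. Another list held 15 measured genes, mostly substrates of SIRT1 or SIRT3. Of these, Rela and Nfkbia of the NF-κB pathway rose by 0.59 and 0.40, though Nfkbia encodes an inhibitor of that pathway and not an established substrate. Glud1, which makes α-ketoglutarate, rose by 0.34, and Sod2, the superoxide dismutase of the matrix, and Idh2, an isocitrate dehydrogenase, by 0.27 each. Of 13 measured genes of other sirtuins and NAD synthesis, Nampt, which recycles nicotinamide into NAD, and Parp1, which consumes NAD, rose by 0.40 and 0.34. These counts stand beside 13.3% of all genes called in that comparison. The reactive glia mean of the same KO light arrays was 9.37 to 9.81, against 7.87 to 7.97 on KO dark arrays. Without KO light 3 the ratios of Hsd17b10, Sod2 and Idh2 were 1.19, 1.19 and 1.18, under the limit of 1.2, and the other genes of this paragraph were called.

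Set against WT light, KO light retinae showed some of these differences too with the exchanged arrays (8.23% of all genes called). Polg2 and Top1mt fell by 0.43 and 0.23 and Pnpt1 rose by 0.35. Rela, Idh2 and Nfkbia rose by 0.43, 0.33 and 0.30, and Myc rose by 1.10. Myc stood at 6.93, 6.98 and 6.36 on KO light 1 to 3, but at 7.67 on the array labelled WT dark 4. The size of each Myc difference with the exchanged arrays thus rests in part on that array. When KO light 3 was left out, Top1mt, Pnpt1 and Nfkbia were not called (adjusted p = 0.129, 0.0912 and 0.0803). Over the 124 genes of these lists, 26 were called in KO light against KO dark with the exchanged arrays (13.3% of all genes called). In KO light against WT light 17 were called (8.23% of all genes called). Of these, 21 and 12 were also called without KO light 3, in fits that called 9.94% and 5.24% of all genes. Both fits use the same other arrays, so the second is no separate check. The interaction was called for Myc (1.04, adjusted p = 0.0219), Esrrb (-0.53, adjusted p = 0.0261) and Lrpprc (-0.28, adjusted p = 0.0256) with the exchanged arrays, against 2.78% of all genes. With KO light 3 left out it was called for Myc and Lrpprc, and for Esrrb the adjusted p was 0.0728.

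Nampt was the gene of these lists called after light in both genotypes with the exchanged arrays. Its log2 intensity was 9.56, 9.54 and 8.91 on KO light arrays and 9.38, 9.43 and 9.30 on WT light arrays. It was 9.18, 9.23 and 9.20 on KO dark arrays and 9.05, 8.99 and 9.11 on WT dark arrays, and 9.71 on the array labelled WT dark 4. All WT light arrays lay above all WT dark arrays, and KO light 3 lay below every KO dark array. The rise was 0.40 (SE 0.06, adjusted p = 0.000306) in KO and 0.32 (SE 0.06, adjusted p = 0.00594) in WT retinae with the exchanged arrays. Of the 9 measured other PPARs and RXR partners none was called in any comparison, with the arrays as labelled or exchanged.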

How the data were processed

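The deposited values are probe set intensity on a linear scale, brought to a common level between arrays by the authors. The methods name Partek and Bioconductor for the CEL files, and the submitters' processing notes name Partek. The versions, the summarization and normalization and the genome build of the array annotation were not given in the sources used here. No deposited column of fold changes or p-values was present.

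Values were taken to log2, and probe sets with exactly 1 symbol in the platform annotation (21640 of 34760) were averaged per gene, which gave 19937 genes. Probe sets with several symbols (1321) or none (11799) were not analysed here. No filter on dim probe sets was applied and no background per probe set was used. Precision is limited by how few arrays each group had, and standard errors also depended on which array stood as KO light 3. A single model with a mean for each of the 4 groups was fitted in limma 3.58.1 (R 4.3.3) over 12 arrays (8 residual degrees of freedom before moderation), since the methods name an ANOVA over groups of 3 arrays, Benjamini-Hochberg adjustment and the ratios 1.2 and 0.87. The script was tested on simulated data. Replicates are separate mice by the labels, and replicate numbers did not pair the samples. With 3 arrays on each side an exact permutation test has 0.1 as its smallest p. The alternatives were other scalings, filters and variance models, the exchanged arrays, and leaving out each array in turn. The labels name Trizol for RNA extraction, and the methods name another kit.

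All members were named. Of each list up to 4 called genes per comparison were to be named by the size of the change. Where 5 were called, the fifth was named too, after its values were seen. Also named were Ppargc1a and Ppargc1b, and, for each member ranging over 0.5, the 2 most alike genes and the most opposite one. The members and lists were chosen with earlier results of these data known, and genes not called with the arrays as labelled were named after their values were seen. Promoter sequences are from RefSeq (GRCm38.p6).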

Additional observations from a re-analysis of the deposited data

How the results depend on the processing

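Over the 10 members, 5 comparisons and 22 alternatives 1090 differences were computed, 1087 of which kept their side of the threshold and 3 of which passed it only under the alternative, and 0 reversed among the values past the threshold or 2 SE. As no member was called as labelled, keeping the side meant staying uncalled. Small differences did change sign, at most in 5 alternatives for a member and comparison, as for Nrf1 in KO dark against WT dark and Tfb2m in the interaction. The count of called members was 0 throughout except with the exchanged arrays, where it was 1 in KO light against WT light (Ppard) and 1 in KO light against KO dark (Ppara), and in KO light against KO dark without KO light 3, where it was 1 (Ppara). Leaving out 1 array at a time gave 0 to 1 called members in that comparison and 0 in the others. With the arrays as labelled, 0 members were called in each comparison with 1 test per probe set or with the replicate number as a block. With 1 test per probe set (limma) and the exchanged arrays, Ppard was called in KO light against WT light (adjusted p = 0.0253). Ppara (adjusted p = 0.00392) and Tfb2m probe set 10400165 (adjusted p = 0.00662) were then called in KO light against KO dark. Deviations of arrays with the same number had an r of -0.192 to 0.22, so the numbers did not pair the arrays.

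The counts over all genes moved far more, which limits any reading of the members against them. KO light against WT light gave 35 calls as labelled, 0 when only these groups were fitted and 1640 with the exchanged arrays. KO dark against WT dark gave 15 calls, 1 without WT dark 1 and 184 with array weights. KO light against KO dark gave 20 calls, 0 with all 13 arrays and 2653 with the exchanged arrays. WT light against WT dark gave 86 calls, 9 without WT light 3 and 880 with the exchanged arrays. The interaction gave 12 calls, 1 without moderated variances and 555 with the exchanged arrays, and it has no value when only the groups compared are fitted.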
